A study of Mus musculus with 4 samples.

Results

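Extracellular serine proteases cut proteins at the cell surface and in the matrix, and epithelia control them with inhibitors made by the same cells. Matriptase (St14) is a membrane-anchored protease that works with the lipid-anchored protease prostasin (Prss8), and both are held in check by the Kunitz-type inhibitors Spint1 and Spint2. Urokinase (Plau) and tissue plasminogen activator (Plat) turn plasminogen into plasmin, kallikreins (Klk) are secreted proteases of skin and glands, and Kazal-type inhibitors (Spink) block trypsin-like enzymes and kallikreins. These genes were followed by RNA sequencing of mouse cells, in 3 libraries of horizontal basal cells (HBCs) grown in culture from olfactory tissue and in 1 library of respiratory basal cells (RBCs) sorted straight from tissue. The set was defined by gene symbol: all Tmprss, Klk, Prss and Spink genes whose symbol continues with a digit (or, for Klk, a b), with St14, Plau, Plat, Hpn, Htra1, Spint1 and Spint2, which gave 102 of the 23281 genes listed. Of these, 88 encode proteases (or, for Klk1b7-ps, a protease pseudogene) and 14 encode inhibitors.

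HBCs are the reserve stem cells of the olfactory epithelium and lie on its basement membrane, and RBCs are the stem cells of the respiratory epithelium. The HBC libraries came from wildtype mice, were taken at passage 3 in culture and had no sort. The RBC library was TdTomato+ cells of the strain KRT5-CreER;Ai9-fl(stop)TdTomato, in which a keratin 5 promoter drives an inducible Cre recombinase that switches on a red reporter, and these cells were microdissected and were not cultured. Cell origin, strain, culture and sorting thus differ together between the groups and cannot be told apart, and the labels used here give neither ages nor numbers of animals. Levels are in depth-scaled FPKM throughout, a per-length unit, obtained by dividing each library's deposited values by 1 factor.

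Column sums as deposited ran from 8377230 to 10856000 over the HBC libraries, against 9877610 for the RBC library, and the number of reads is unknown. Basal cell markers were mostly lower in the HBC libraries. Of 11 tested, 9 were called higher in RBCs, among them Trp63 (559.7, 539 and 536 in HBCs, 4296 in RBCs) and Krt15 (1216, 1289 and 1286 in HBCs, 17156 in RBCs), while Krt5 (18381, 19003 and 18353 in HBCs, 26422 in RBCs) and Itga6 were not called. Markers of leukocytes, fibroblasts and endothelium summed to between 863 and 1072 in the HBC libraries, against 24417 in RBCs, and of 33 tested by the test described below 27 were called higher in RBCs and 2, the leukocyte markers Cd68 and Cd53, higher in HBCs. Much of the RBC sum was Lyz2 (14733) and Dcn (6885), and much of the HBC sum was Cd68 (514 on average, against 65.5 in RBCs). The 27 include 6 genes at 0 in all HBC libraries (Tyrobp, Fcer1g, Csf1r, Emcn, Cldn5 and Tie1), which could pass the filter only by being high in RBCs. Without genes at 0 in all HBC libraries, 7 of 7 tested ciliated cell markers and 7 of 7 olfactory neuron and sustentacular markers were called higher in RBCs. For gland and secretory markers it was 3 of 6, and the gland markers Ltf and Aqp5 were called higher in HBCs. Over all genes above 0 in some HBC library, 28.7% were called higher in RBCs. Ccdc113, Spag6, Cnga2, Ermn, Sec14l3 and Bpifb1 remain in these counts with HBC means under 1, so their calls are no test. The same holds for Ptprc, Laptm5, Col6a3, Lum, Pdgfrb, Dpt, Pecam1, Cdh5, Kdr, Esam and Vwf among the 27. In bulk RNA, fewer cells of a type and less RNA per cell cannot be told apart.

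The design compares cultured HBCs with RBCs taken from the animal. Proteases differed in both directions, whereas none of the 5 inhibitors tested was called. A gene was called when limma's adjusted p was under 0.05 and the difference at least 2-fold on the log2(value + 1) scale. By limma's unadjusted p under 0.05, 4 of the 5 inhibitors differed, and 2 of them (Spint1 and Spink5) also by the adjusted p, but by less than 2-fold. Spint1, Spink5, Spink2 and Spink4 were each called in some of the alternative settings given below, and Spint2 in none. Uncalled does not mean unchanged: the log2 difference was -5.05 for Spink4 and 3.39 for Spink2. Of the 102 genes, 30 were listed at 0 in all 4 libraries, 15 more were too low to be tested (a mean of the group values under 1) and 57 were tested. Of those tested, 14 were called higher in HBCs (24.6%, against 12.8% of all 16438 genes tested) and 24 were called higher in RBCs (42.1%, against 34.2% of all genes tested). In either direction this was 38 of 57 (66.7%, against 47.0% of all genes tested). The median difference was -1.27 over the tested members and -0.45 over all genes tested (log2, HBC minus RBC), and under quantile normalization these medians were 0.46 and 0.10. Without genes at 0 in all HBC libraries they were -0.55 and -0.29. The RBC-side count includes 10 members listed at 0 in all HBC libraries, which could pass the filter only by being high in RBCs, so their calls are no test. Among the 47 members above 0 in some HBC library, 14 were called in each direction (29.8%), against 13.9% of such genes called higher in HBCs and 28.7% called higher in RBCs. These RBC-side calls still include Klk11, Klk1b26, Klkb1, Prss33 and Tmprss6, whose HBC means were under 1. On the HBC side, Tmprss11e and Tmprss11f were under 1 in RBCs. Such members passed the filter only through the group where they are high, so their calls are no test either. The split over all tested members was 14 to 24, and it became 19 to 12 under quantile normalization. Among all genes it was 2105 to 5619, and it became 3664 to 3158 under quantile normalization and 3781 to 4485 with the library medians set equal.

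The most abundant gene of the set in each library was Spint2, at 6034, 6565 and 6760.0 in the HBC libraries and 6829 in the RBC library. It ranked 211th, 188th and 192nd of all genes in the HBC libraries and 162nd in the RBC library. After it the order differed. In HBCs the next were Htra1, Plat, Tmprss11bnl, Prss22, Plau, St14, Spint1, Tmprss4 and Tmprss11d, and in the RBC library they were Prss23, Spint1, Klk1, Tmprss2, Prss8, Plat, St14, Hpn and Klk14. The top 10 of each group shared 4 genes. In HBCs, Plau (1642 ± 81.1) and St14 (1624 ± 44.2) did not differ beyond their spread (SD, n = 3), nor did Tmprss4 (1242 ± 40.0) and Tmprss11d (1181 ± 93.5). The HBC libraries were close to each other: over the 20 members averaging 100 or more, the coefficient of variation ran from 0.289% to 8.22%, with a median of 4.35%, against 4.08% over all genes at that level.

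**Figure D1:**
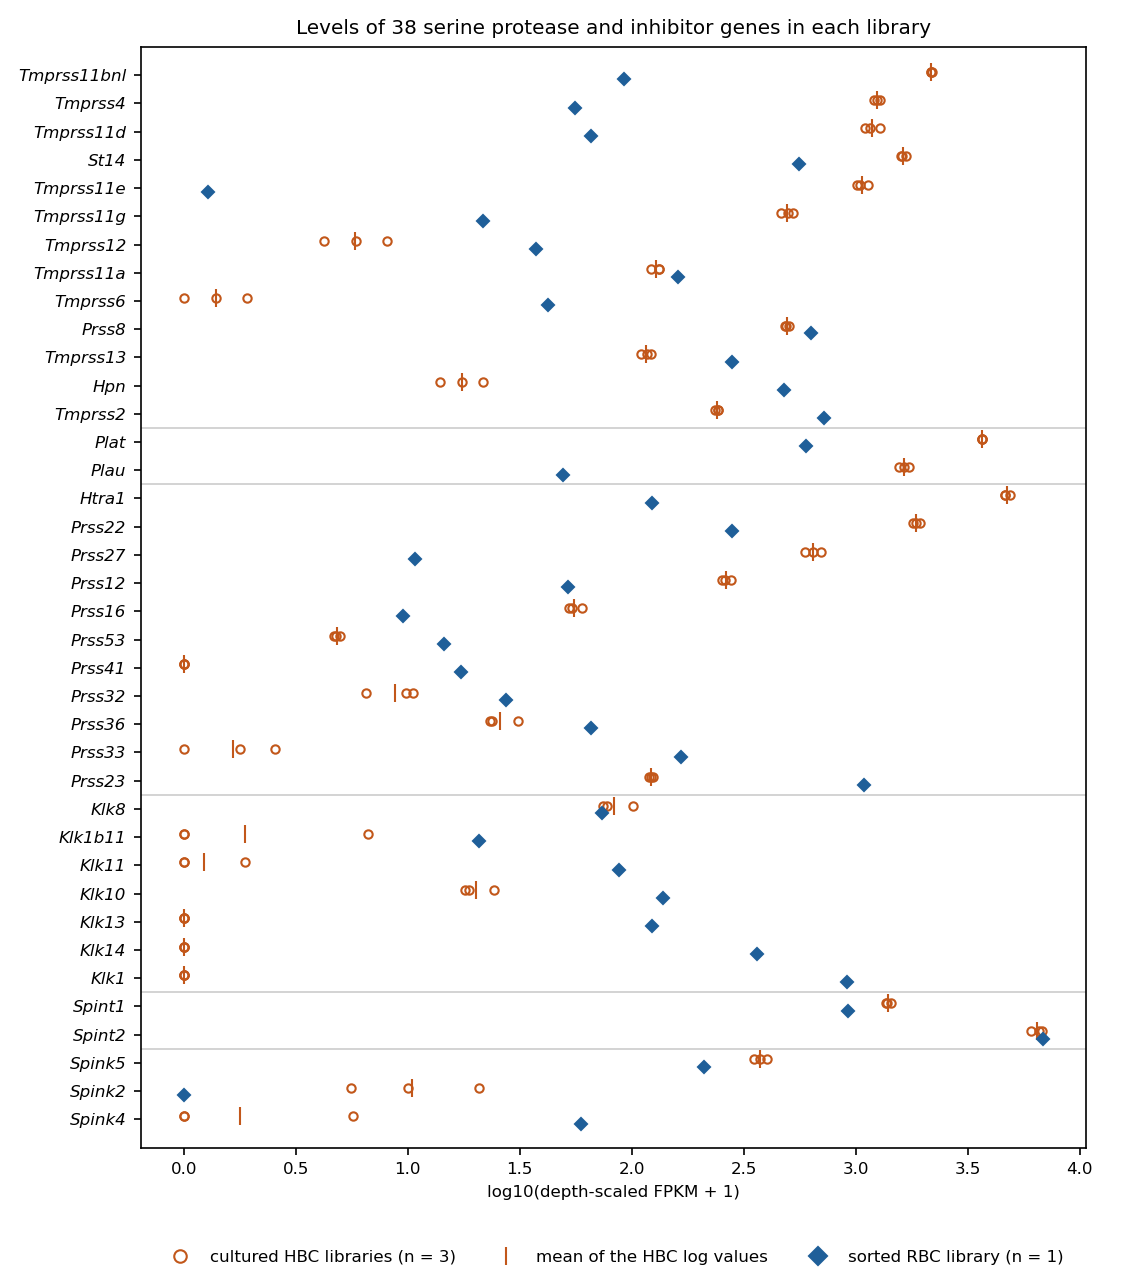
Each row is 1 of the 38 genes that reached 10 in a group, grouped by class with grey lines between classes, and the x axis is log10(depth-scaled FPKM + 1). Open circles are the 3 HBC libraries, ticks the mean of their log values and diamonds the single RBC library, and Spint2 nearly coincides between groups while Tmprss11e, Htra1 and Klk1 lie far apart.

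Neighbouring genes of the Tmprss11 family on chromosome 5 were higher in HBCs nearly as a block. These genes encode membrane-anchored trypsin-like proteases of stratified and airway epithelium, and all 7 members lie next to each other in the RefSeq order. Of the 6 tested, 5 were called higher in HBCs (83.3%, against 12.8% of all genes tested) and 1, Tmprss11a, was not called. Tmprss11e and Tmprss11f were under 1 in RBCs and passed the filter only through the HBC values. Their calls are thus no test, which leaves Tmprss11d, Tmprss11g and Tmprss11bnl. The bases just before the annotated start are shown for 3 of the 4 abundant neighbours called higher in HBCs, those with an entry in the RefSeq promoter table (build GRCm38.p6, all on the minus strand). Capitals mark a match to the AP-1 motif TGANTCA.
Tmprss11d, chr5:86373388-86373637: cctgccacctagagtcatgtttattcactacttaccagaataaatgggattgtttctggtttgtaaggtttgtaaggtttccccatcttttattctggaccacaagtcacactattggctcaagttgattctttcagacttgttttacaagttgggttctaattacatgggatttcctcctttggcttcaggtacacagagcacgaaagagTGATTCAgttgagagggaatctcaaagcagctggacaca
Tmprss11bnl (Tmprss11b in RefSeq), chr5:86676299-86676548: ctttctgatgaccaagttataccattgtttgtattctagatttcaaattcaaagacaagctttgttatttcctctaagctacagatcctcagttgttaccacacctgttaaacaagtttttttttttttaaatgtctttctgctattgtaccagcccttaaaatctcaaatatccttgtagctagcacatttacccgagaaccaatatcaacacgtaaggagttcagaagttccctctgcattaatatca
Tmprss11g, chr5:86518601-86518850: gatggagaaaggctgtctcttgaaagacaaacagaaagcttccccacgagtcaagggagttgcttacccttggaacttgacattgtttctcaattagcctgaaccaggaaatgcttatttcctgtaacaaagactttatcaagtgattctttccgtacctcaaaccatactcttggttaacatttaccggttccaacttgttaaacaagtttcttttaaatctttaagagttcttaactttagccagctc

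The match in Tmprss11d begins 39 bases before the start, and the other pair holds none. Both strands of the 250 bases before each start were searched for 4 motifs. The AP-1 letters TGANTCA were present in 6.75% of the 32851 windows of the table. A Grainyhead-like motif, AACCNGTT, was present in 1.79%. A TATA box, TATAAA, was present in 12.4%, and a forkhead motif, TGTTTAC, in 3.17%. Of the 7 members called higher in HBCs that have a window, Tmprss11d and Tmprss11f held the AP-1 letters and none held the other motifs. Of the 22 called higher in RBCs that have a window, 3 held the AP-1 letters (Prss23, Prss36 and Tmprss5), and the TATA box and the forkhead motif were each found in Klkb1 alone. A match describes letters in a window and not a bound site, and no match of 1 motif overlapped another in the windows printed here.

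Tmprss11e, a protease of squamous epithelium, gave the widest difference of any member tested outside those at 0 in HBCs. It stood at 1135, 1007 and 1045 in the HBC libraries, against 0.288 in the RBC library. The RBC value is near 0, so no fold is given. The difference was 9.69 on the log2(value + 1) scale, and it was 11.4 with a pseudocount of 0.1 and 7.66 with a pseudocount of 5. Tmprss11e passed the filter only through the HBC values, so its call is no test and no p-value is given. Tmprss11bnl was at 2158, 2161 and 2177 in the HBC libraries and at 91.3 in the RBC library, 23.7-fold higher in HBCs (limma adjusted p = 2.56e-06). Tmprss11g was at 525, 462 and 496 in HBCs against 20.7 in RBCs, a 23.8-fold difference (limma adjusted p = 0.000449). Tmprss11d, the mouse counterpart of the human airway trypsin-like protease, was at 1284, 1159.7 and 1101 in HBCs against 64.6 in RBCs (18.3-fold, limma adjusted p = 0.000736). In none of these genes did the groups overlap. Tmprss11f, a low member, was at 5.97, 5.26 and 7.43 in HBCs and at 0.906 in the RBC library, and Tmprss11c reached at most 2.46 and was not tested.

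Tmprss11a, in the middle of the row, broke the pattern. It was at 131, 121 and 131 in the HBC libraries and at 159 in the RBC library, a log2 difference of -0.32 with a limma 95% interval of -0.57 to -0.06. The adjusted p was under 0.05 but the difference was under 2-fold. It turned to 0.18 with the medians set equal and to 0.14 under quantile normalization. Genes that flank the row, listed by position, did not share a direction. Before the row, Stap1 was at 0 in all HBC libraries and at 184 in RBCs, Uba6, a ubiquitin-activating enzyme, was at 335, 297 and 313 in HBCs against 90.1 in RBCs and was called higher in HBCs, and Gnrhr reached at most 3.45. After it, Ythdc1, a nuclear RNA-binding protein, was at 539, 531 and 539 in HBCs against 937 in RBCs and was not called, and Ugt2b34 was at 0 in all HBC libraries and at 21.1 in RBCs. How reads that fit more than 1 Tmprss11 gene were counted is unknown, so the division among close copies is uncertain.

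Other membrane-anchored proteases went both ways. Outside the Tmprss11 genes, 12 were tested. Of these, 2 (Tmprss4 and St14) were called on the HBC side, 6 on the RBC side (1 of them at 0 in all HBC libraries) and 4 on neither. The RBC-side call of Tmprss6, whose HBC mean was under 1, is no test. With the Tmprss11 genes it was 7 and 6 of 18, the RBC share (33.3%) near the 34.2% over all genes tested. The whole class summed to 8932, 8743 and 8649.6 in the HBC libraries, against 3149 in the RBC library. Tmprss4, a protease of many epithelia, was at 1241, 1283 and 1203 in HBCs and at 54.6 in RBCs, 22.8-fold higher in HBCs (limma adjusted p = 9.98e-05). Matriptase, St14, was at 1588, 1673 and 1609.8 in HBCs, against 556 in RBCs. All 3 HBC libraries lay above the RBC library, and the 2.92-fold difference passed the test (log2 1.55 ± 0.04 SE, limma adjusted p = 0.000679).

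The RBC library was higher for another group of membrane-anchored enzymes. Tmprss2, known for priming viral surface proteins in airway cells, was at 234, 242 and 243 in the HBC libraries and at 723 in the RBC library (3.02-fold higher in RBCs, limma adjusted p = 0.000395). Tmprss13, an epidermal protease, was at 120.4, 116 and 109 in HBCs and at 279 in RBCs (2.43-fold, limma adjusted p = 0.00290). Equal library medians brought its log2 difference to -0.77, under 2-fold. Hepsin, Hpn, a protease best known from liver, was at 13, 16.4 and 20.7 in HBCs and at 478 in RBCs, 28.6-fold higher (limma adjusted p = 0.00358). In each of these genes the RBC value lay above every HBC library.

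The low members Tmprss6 and Tmprss12 were also called higher in RBCs. Tmprss6, which controls iron uptake through its action in liver, was at 0.387, 0 and 0.922 in HBCs and at 41.4 in RBCs, and it was not called with a pseudocount of 0.1 (limma adjusted p = 0.0504). Tmprss12 was at 7.06, 4.86 and 3.22 in HBCs and at 36.3 in RBCs, and it was not called when HBC library 2 was left out (limma adjusted p = 0.0951) or under quantile normalization (limma adjusted p = 0.232). Ciliated cell markers summed to between 184 and 226 in the HBC libraries and to 4348 in the RBC library, and their part in these values was not tested. All 8 were called higher in RBCs. Of these, Tekt1 had every HBC library at 0, and Ccdc113 and Spag6 had HBC means under 1, so those calls are no test.

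Prostasin and the Kunitz inhibitors, the partners of matriptase, differed by less than 2-fold. Prss8 was at 482, 485 and 502 in the HBC libraries and at 628 in the RBC library. The RBC value was above all 3 HBC values, and the log2 difference was -0.36 with a limma 95% interval of -0.47 to -0.25. Spint1 was at 1365, 1429 and 1374 in HBCs and at 926 in RBCs, with a log2 difference of 0.58 (interval 0.46 to 0.71). Spint2, given above, had a log2 difference of -0.08 (interval -0.38 to 0.22), and its RBC value was the highest of the 4 by a margin smaller than the spread of the HBC libraries. With the medians set equal, Prss8 (0.15) and Spint2 (0.42) changed sign and Spint1 reached the threshold (1.09). The 2 Kunitz genes together summed to 7399, 7994 and 8135 in HBCs and to 7755 in RBCs.

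Ratios of genes within a library do not depend on the factor a library is divided by. Spint1 was 0.859, 0.854 and 0.854 of St14 in the HBC libraries and 1.67 of it in the RBC library. Spint2 was 3.80, 3.92 and 4.20 times St14 in HBCs and 12.3 times St14 in RBCs. Prss8 was 0.303, 0.290 and 0.312 of St14 in HBCs and 1.13 of it in RBCs. Relative to matriptase, both inhibitors and prostasin were thus lower in every HBC library than in the RBC library. Spint2 over Prss8 was nearer between groups, at 12.5, 13.5 and 13.5 in HBCs and 10.9 in RBCs. With 3 libraries against 1, the smallest p an exact permutation test can give is 0.25, so these ratios are descriptions.

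**Figure D2:**
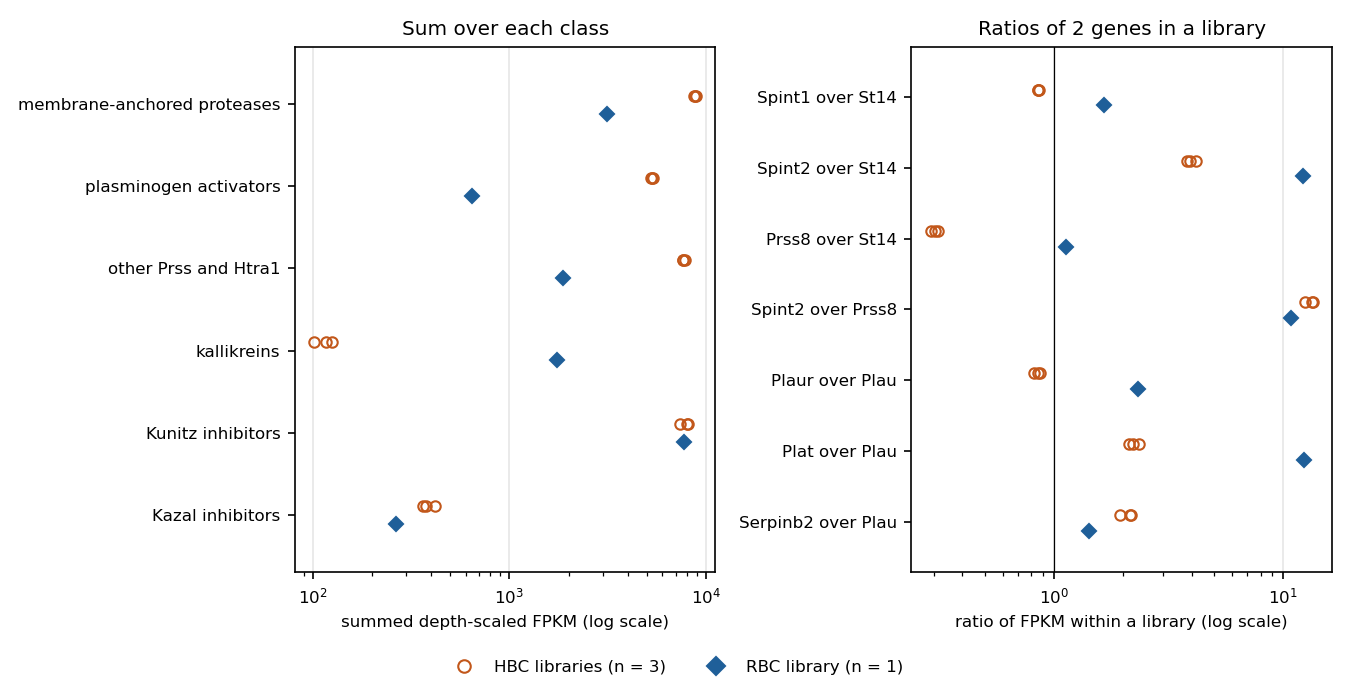
The left panel plots the summed depth-scaled FPKM of each class and the right panel the ratio of 2 genes within a library, both on log axes, with open circles for the 3 HBC libraries and diamonds for the RBC library. Protease classes other than kallikreins and the Kazal inhibitors lie higher in HBCs, kallikreins lie higher in the RBC library, and the Kunitz sums overlap. In HBCs, Htra1 made up 61.2% of the sum of other Prss genes with Htra1, and Plat 69.0% of the activator sum. In the RBC library, Prss23 made up 58.3% and Plat 92.5% of these sums.

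Both plasminogen activators were higher in HBCs, urokinase by the wider margin. Plau was at 1562, 1725 and 1639.6 in the HBC libraries, against 48.3 in the RBC library. This was 34.0-fold higher in HBCs (log2 difference 5.06 ± 0.07 SE, limma adjusted p = 0.000199), with no overlap. Plat was at 3668, 3667 and 3649 in HBCs and at 597 in RBCs, 6.13-fold higher (limma adjusted p = 1.15e-05). Plat was the more abundant activator in all 4 libraries, but it was 2.35, 2.13 and 2.23 times Plau in HBCs and 12.4 times Plau in RBCs. Fibroblast markers summed to between 49.5 and 70.6 in the HBC libraries and to 7858 in the RBC library, most of it Dcn. All 11 were called higher in RBCs. Calls of Col6a3, Lum, Pdgfrb and Dpt, with HBC means under 1, are no test. The part of fibroblasts in the activator values was not tested.

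Other genes of the urokinase and plasmin system included several that were higher in HBCs. Of 13 listed, 11 were tested, 6 were called higher in HBCs and 3 in RBCs, with a median log2 difference of 1.21 against -0.45 over all genes tested. The urokinase receptor Plaur was at 1337, 1421 and 1433 in HBCs and at 112 in RBCs (12.4-fold, limma adjusted p = 0.000236). Serpinb2, an inhibitor of urokinase that is kept largely inside cells, was at 3396, 3355 and 3518 in HBCs against 69.2 in RBCs (49.5-fold, limma adjusted p = 2.99e-05). Anxa2, which binds plasminogen and Plat at the cell surface, was at 42924, 39433 and 39812 in HBCs and at 7249.5 in RBCs. Plaur was 0.856, 0.824 and 0.874 of Plau in the HBC libraries and 2.33 times Plau in the RBC library, and Serpinb2 was 2.17, 1.95 and 2.15 times Plau in HBCs and 1.43 times Plau in RBCs. Plasminogen itself, Plg, was listed at 0 in all 4 libraries.

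Secreted and lipid-anchored proteases of the Prss group, with Htra1, again divided. Of 38 members, 13 were listed at 0 throughout and 17 were tested. Of those tested, 5 were called on the HBC side, 8 on the RBC side (3 of them at 0 in all HBC libraries) and 4 on neither. Without those 3 it was 5 in each direction of 14 (35.7%). The RBC side still includes Prss33, whose HBC mean was under 1, so its call is no test. Among all genes above 0 in some HBC library, 13.9% were called higher in HBCs and 28.7% in RBCs, so the RBC share was near that of all genes. Htra1, a secreted protease that degrades matrix proteins, was at 4652, 4877 and 4613 in the HBC libraries and at 122 in the RBC library. It was 38.7-fold higher in HBCs (log2 difference 5.26 ± 0.04 SE, limma adjusted p = 5.72e-05). Prss27, a protease of squamous epithelium also called marapsin, was at 700.2, 644 and 594 in HBCs and at 9.78 in RBCs (66.1-fold, limma adjusted p = 0.000424). Prss22, an airway tryptase whose human form can activate pro-urokinase, was at 1792, 1847 and 1936 in HBCs and at 278 in RBCs (6.69-fold, limma adjusted p = 0.000448). In all of these the HBC libraries lay well above the RBC library.

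Prss12 and Prss16 were higher in HBCs too. Prss12, or neurotrypsin, which cuts agrin at synapses, was at 251, 258 and 276 in HBCs and at 50.7 in RBCs (5.17-fold, limma adjusted p = 0.000908). Prss16, a protease first known from the thymus, was at 51.7, 58.7 and 53.3 in HBCs and at 8.53 in RBCs (6.40-fold, limma adjusted p = 0.00203). Prss23, a secreted protease, was the strongest of this class in the RBC library, at 119, 121 and 123 in HBCs and 1086 in RBCs (8.98-fold higher in RBCs, limma adjusted p = 9.41e-05). Prss33 was at 0, 0.786 and 1.56 in HBCs and at 165 in RBCs, and it was not called with a pseudocount of 0.1 (limma adjusted p = 0.0526). Leukocyte markers summed to between 812 and 998 in the HBC libraries and to 16459.5 in the RBC library, most of it Lyz2 as given above. Of 13 tested, 8 were called higher in RBCs (3 of them at 0 in all HBC libraries) and 2 higher in HBCs. Calls of those 3, and of Ptprc and Laptm5 with HBC means under 1, are no test. The part of leukocytes in the Prss33 value was not tested.

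The remaining RBC-side calls of the class were of low genes. Prss36 was at 22.3, 29.9 and 22.8 in HBCs and at 64.6 in RBCs, Prss32 at 5.52, 8.86 and 9.53 in HBCs against 26.5 in RBCs, and Prss53 at 4.0, 3.80 and 3.68 in HBCs against 13.5 in RBCs. Prss36 was not called without HBC library 1 (limma adjusted p = 0.0823) or without HBC library 3 (0.0892), and Prss32 was not called without HBC library 2 (limma adjusted p = 0.113) or HBC library 3 (0.0897). Neither was called with values as deposited, with equal library medians or under quantile normalization, and Prss32 was not called with a pseudocount of 0.1 (limma adjusted p = 0.0523). Prss53 turned to a log2 difference of 0.89 under quantile normalization, and Prss32 to 0.51. Prss41 was at 0 in each HBC library and at 16.3 in RBCs. The 27 members of the class below 10 in both groups reached at most 8.03.

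On chromosome 17, 7 Prss genes lie close together in the RefSeq order. Of these, Prss33 and Prss32 were called higher in RBCs, and the last pair, Prss22 and Prss27, were called higher in HBCs. Prss41 and Prss30 were at 0 in all HBC libraries and at 16.3 and 8.03 in RBCs, so their calls are no test. That of Prss33, whose HBC mean was under 1, is no test either. Prss21, between Prss32 and Prss30, was listed at 0 in all 4 libraries. The 3 Prss genes at another place on chromosome 17 (Prss34, Prss28 and Prss29) were also at 0 throughout.

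**Figure D3:**
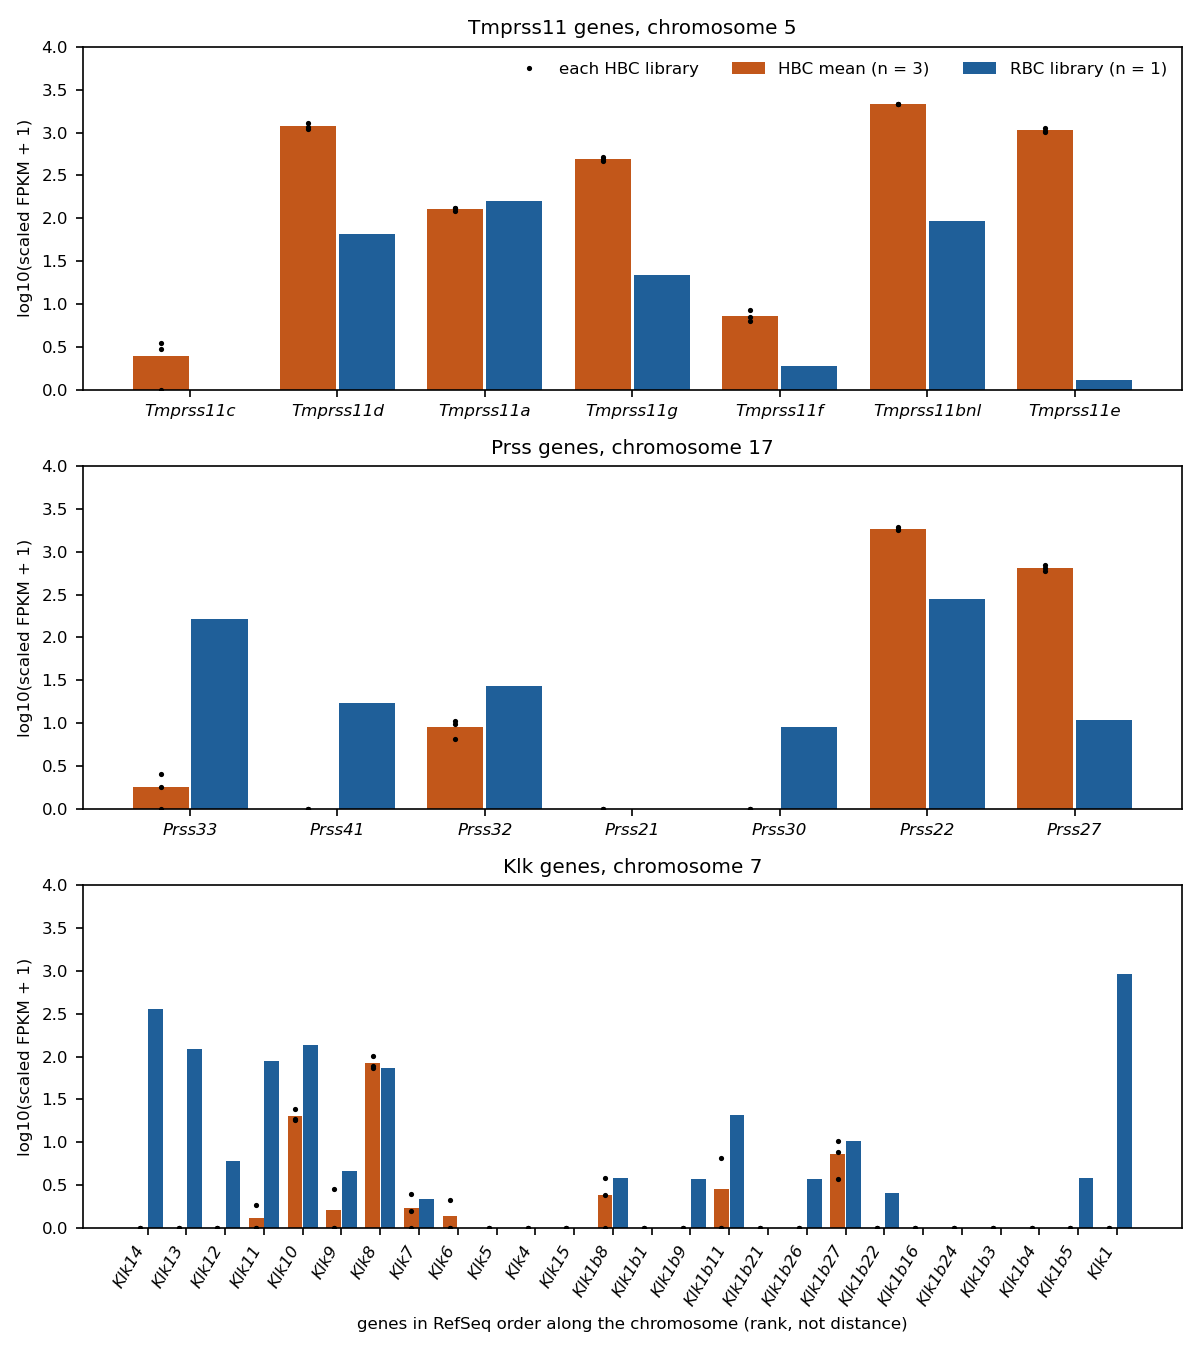
Bars give log10(depth-scaled FPKM + 1) for the mean of the 3 HBC libraries (black dots, each library) and for the RBC library, with genes in RefSeq order along chromosomes 5, 17 and 7, by rank and not to scale in distance. On chromosome 5 the HBC bar is the taller one for all but Tmprss11a, on chromosome 17 only for Prss22 and Prss27, and among the Klk genes only for Klk8 and the near-zero Klk6.

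Kallikreins were low in the HBC cultures. The 28 Klk genes summed to 102, 125 and 117 in the HBC libraries, against 1756 in the RBC library. Limma tested 15 of them, of which 10 were called higher in RBCs (66.7%, against 34.2% of all genes tested) and 5 were not called. Of the 10, 6 were listed at 0 in all HBC libraries. Without those 6 it was 4 of 9 (44.4%), against 28.7% of all genes above 0 in some HBC library. Of the 4, Klk11, Klk1b26 and Klkb1 (plasma kallikrein) had HBC means under 1 and passed the filter only through the RBC value. Their calls are thus no test, which leaves Klk10. No kallikrein was higher in HBCs by limma, at an adjusted or an unadjusted p under 0.05. Klk1, tissue kallikrein, which releases kinins and is made by glands, was at 0 in all HBC libraries and at 916 in the RBC library, where it made up 52.2% of the kallikrein sum. Klk14 and Klk13, proteases of skin and other stratified epithelia, were likewise at 0 in all HBC libraries and at 363 and 123 in the RBC library. An exact 0 in a table without counts can be a failed estimate, so no fold is given for these.

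Klk10 and Klk11 were called with some HBC signal. Klk10 was at 17.1, 17.7 and 23.2 in the HBC libraries and at 137 in the RBC library, 7.10-fold higher in RBCs (limma adjusted p = 0.00577). Klk11 was at 0, 0.874 and 0 in HBCs and at 86.9 in RBCs. Klk8, or neuropsin, a protease of brain and epidermis, was the most abundant kallikrein in the HBC libraries. It was at 73.4, 100.3 and 76.6 in HBCs and at 72.7 in RBCs, the RBC value just under the lowest HBC value, and it made up 72.8% of the HBC kallikrein sum. Its log2 difference was 0.18 with a limma 95% interval of -0.66 to 1.02, and under quantile normalization it was called higher in HBCs (1.23, limma adjusted p = 0.0123).

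Of the kallikreins known for skin shedding, Klk5 was at 0 in all 4 libraries and Klk7 stayed at 1.5 or below. The 14 Klk1b genes are close copies of Klk1, so reads may have been shared among them. Their highest value was 19.7, for Klk1b11 in the RBC library, where the HBC libraries stood at 0, 0 and 5.63. Of 10 gland and secretory markers tested, 7 were called higher in RBCs (4 of them at 0 in all HBC libraries) and 2 higher in HBCs. Calls of those 4, and of Bpifb1 with an HBC mean under 1, are no test. Gland and secretory markers summed to between 138265 and 140891 in HBCs, most of it Ltf (118866 on average), and to 484322 in RBCs. Among them Scgb1a1, Muc5b, Dcpp1, Sox10 and Odam were at 0 in all HBC libraries. The part of gland cells in the kallikrein values was not tested.

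Kazal inhibitors were few. Of 12 Spink genes, 7 were listed at 0 in all libraries, 3 were tested and none was called by limma, although all 3 had an unadjusted p under 0.05. Spink5, the skin inhibitor of kallikreins whose loss causes Netherton syndrome in people, was at 399.7, 349 and 372 in HBCs and at 208 in RBCs. Its log2 difference was 0.84 with a limma 95% interval of 0.50 to 1.18, below 2-fold, and it reached the threshold with equal library medians (1.34) and under quantile normalization (1.06). Spink2, known as a sperm inhibitor, was at 19.7, 8.99 and 4.55 in HBCs and at 0 in RBCs (limma adjusted p = 0.0591). Spink5 and Spink2 were above the RBC value in every HBC library, which with 1 RBC library is a description. Spink4, a product of goblet cells, was at 0, 4.72 and 0 in HBCs and at 58.4 in RBCs (limma adjusted p = 0.0619). Without HBC library 2, Spink4 was called higher in RBCs, but every remaining HBC value is then 0, so that call is no test.

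**Figure D4:**
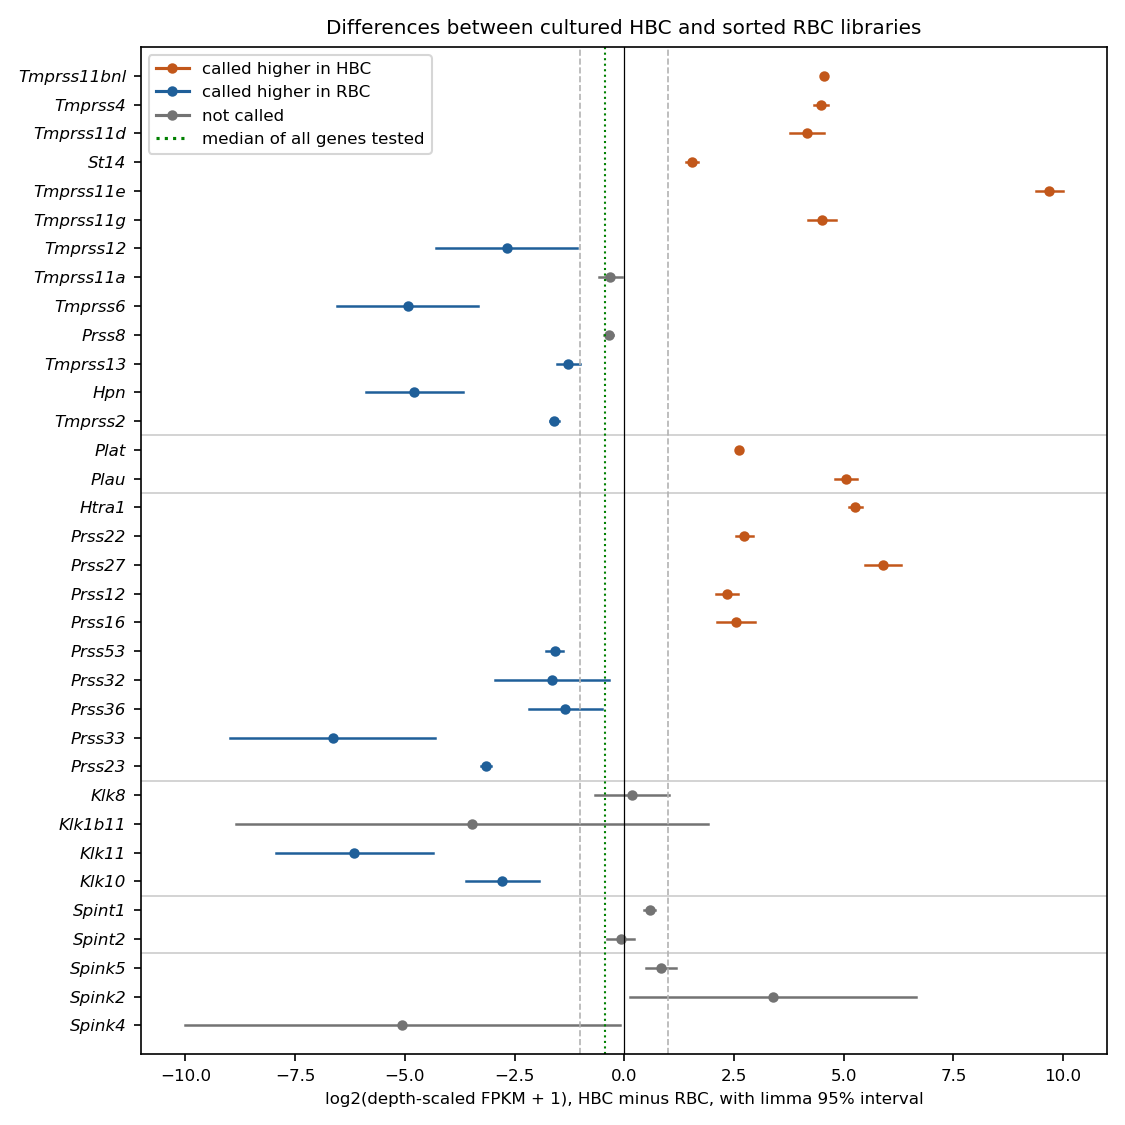
Points give the difference of log2(depth-scaled FPKM + 1), HBC minus RBC, for the 34 named genes above 0 in some HBC library, and bars are limma's 95% intervals, which rest on the spread of the 3 HBC libraries. Dashed lines mark 2-fold and the dotted line the median of all genes tested (-0.45). Tmprss11e at 9.69 lies farthest to the right, and all Spint and Spink genes are uncalled.

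Known substrates and partners of these proteases were measured alongside. Of 18 such genes in the table, 17 were tested, with 6 called in each direction and a median log2 difference of 0.22. Cdsn, called higher in HBCs, was at 0 in RBCs, and Hgf and Dsg1a, called higher in RBCs, had HBC means under 1. Those calls are no test. Over all genes tested the shares called were 12.8% on the HBC side and 34.2% on the RBC side. F2rl1, the protease-activated receptor that matriptase and other trypsin-like enzymes cut, was at 2406, 2470.1 and 2475 in HBCs and at 710.4 in RBCs (3.45-fold, limma adjusted p = 0.000190). The matriptase substrate Epcam was at 6894, 6985 and 7145 in HBCs and at 3189 in RBCs and was called higher in HBCs. Mst1, a growth factor activated by such proteases, was at 701, 743 and 768 in HBCs and at 256 in RBCs, whereas its receptor Mst1r was at 33.4, 37.6 and 37.1 in HBCs against 173 in RBCs and was called higher in RBCs. Scnn1a, a subunit of the sodium channel that prostasin activates, was not called (717, 767 and 699 in HBCs, 1049 in RBCs). Its partners Scnn1b and Scnn1g, named after their values were seen, were called higher in RBCs, with no HBC library above 6.40 for either, against 303 and 187 in the RBC library.

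Inhibitors and serine proteases outside the set were mixed. Of 24 other inhibitors in the table, 18 were tested, 4 were called higher in HBCs and 8 in RBCs, and 4 of those 8 were at 0 in all HBC libraries, so their calls are no test. Without them it was 4 in each direction of 14, against 13.9% of such genes over the whole table called higher in HBCs and 28.7% higher in RBCs. On the RBC side, Serping1 and A2m had HBC means under 1, so their calls are no test either. The leukocyte protease inhibitor Slpi (141, 166 and 146 in HBCs, 27.5 in RBCs), Serpinb1a (1037, 939 and 1052 in HBCs, 189.5 in RBCs) and Serpinb6b (1113, 1097 and 1146 in HBCs, 248 in RBCs) were higher in HBCs. Wfdc18 was at 1297, 1166 and 1306 in HBCs and at 33061 in RBCs. Of 28 other serine proteases, 17 were tested, 2 were called higher in HBCs and 11 in RBCs. Without the 3 at 0 in all HBC libraries (F2, Ctrl and Acr) it was 2 and 8 of 14, against the same 13.9% and 28.7%. The 8 still include Htra3, Corin, C1ra, Dpp4 and Fap, whose HBC means were under 1, so their calls are no test. Pcsk6, a proprotein convertase, was at 263, 251 and 267 in HBCs and at 31.1 in RBCs, and Furin, a convertase that activates many surface proteases, was at 441, 480.5 and 439.6 in HBCs and at 1101 in RBCs. Of 12 proteases of mast cells, neutrophils and lymphocytes, 10 were tested, 7 were called higher in RBCs, all of them at 0 in the HBC libraries and so no test, and the highest of the 7 was Mcpt4 at 17.6 in RBCs. The 1 called higher in HBCs was Mcpt8, named after its values were seen, at 78.0, 74.1 and 78.6 in HBCs and at 0 in RBCs. It passed the filter only through the HBC values, so its call is no test either.

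The test rests on 2 residual degrees of freedom, all from the HBC libraries, and it assumes that a further RBC library would vary as they did. Nothing in the labels says that the HBC libraries are separate cultures or animals, so the p-values measure only how these samples scatter, and that scatter may be technical.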

How the data were processed

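RNA was sequenced from 3 HBC libraries and 1 RBC library. The authors deposited 1 table of FPKM values per gene symbol, 1 column per library, and columns were matched to samples by name and title. Per the submitters' processing notes, STAR, Cufflinks 2.2.1, Cuffnorm and build mm9 were used, with no role or order. Annotation, strandedness and filtering are not stated in those notes. Among genes with all values below 4, the share with values within 2% of each other in a pair of libraries was 12.4% to 26.0%. This was read as the deposited values carrying depth, but no share expected otherwise was computed, so it is an assumption. On that reading, each column was divided by a median-of-ratios factor taken from the 11134 genes that reached 10 in every library. The factors were 0.845, 1.05 and 1.07 (HBC) and 1.06 (RBC).

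Genes whose HBC mean and RBC value averaged at least 1 (16438 of 23281) were tested on log2(value + 1) with limma 3.58.1 in R 4.3.3 (eBayes with trend, two-sided, Benjamini-Hochberg). A gene under 1 in 1 group could pass this filter only through the other group. Leaving out genes at 0 in all HBC libraries does not remove all such genes. Differences on that scale understate low genes. Printed folds are quotients of the scaled values themselves. No p-value is given for genes at 0 in all HBC libraries, and no fold for a gene under 2 in any library. Depth in reads is unknown, so there is no counting interval. The fit was tested on simulated data.

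Named members were St14, Prss8, Spint1, Spint2, Plau, Plat, Htra1, Hpn, Tmprss11e and those at 10 or more in a group. From lists of partners, up to 4 called genes at 10 or more in both groups with the widest difference were named, with F2rl1, Scnn1a, Epcam and Plaur. Some genes that this rule names are not reported here. The members and lists were chosen with earlier results of these data known. Of the 102 members, 100 matched the RefSeq table (GRCm38.p6) by symbol and 2 by an older symbol, and 72 had a promoter window. That table was used for names, gene order and the printed windows only, since the authors' build differs. Alternatives were other scalings, pseudocounts and filters, eBayes without trend, leaving out each HBC library, and, chosen after seeing the data, leaving genes at 0 in all HBC libraries out of the fit.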

Additional observations from a re-analysis of the deposited data

How the results depend on the processing

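Over all alternatives, the 34 named genes above 0 in some HBC library kept direction and call in 407 of 442 comparisons. Tmprss11e, Tmprss11bnl, Tmprss11d, Tmprss11g, Tmprss4, St14, Plau, Plat, Htra1, Prss22, Prss27, Prss12, Prss16, Prss23, Tmprss2, Hpn, Klk10 and Klk11 kept theirs in all. Tmprss11e and Klk11 passed the filter only through the group where they are high, so their calls are no test. Calls were lost in 17 comparisons and gained in 14 (Spink2 and Spink4 in 4 each, Klk1b11 and Spink5 in 2 each, Klk8 and Spint1 in 1 each). The gains of Spink4 without HBC library 2 and of Klk1b11 without HBC library 3 left every remaining HBC value at 0. Those calls are no test. Further, 6 values changed sign, of which Prss32 and Prss53 are also among the lost calls. With the medians set equal, these were Prss8 (log2 difference 0.15), Spint2 (0.42) and Tmprss11a (0.18), and under quantile normalization they were Prss32 (0.51), Prss53 (0.89) and Tmprss11a (0.14). Counts of all genes called higher in HBCs became 3781 with equal medians and 3664 under quantile normalization, which also gave 3158 higher in RBCs and 12 members higher in RBCs. The median of all genes was -0.45 and moved to 0.04 with equal medians, 0.10 under quantile normalization and -0.56 with values as deposited. Leaving genes at 0 in all HBC libraries out of the fit gave 15 members higher in HBCs and 17 higher in RBCs. Without 1 HBC library, 13 to 15 members were called higher in HBCs and 22 to 25 in RBCs.

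Summed levels, HBC over RBC, moved with scaling. For membrane-anchored proteases the ratio was 2.79, and it was 2.59 as deposited, 2.60 with equal sums and 3.95 with equal medians. For plasminogen activators these were 8.22, then 7.65, 7.67 and 11.7, and for the other Prss genes with Htra1 4.13, then 3.85, 3.85 and 5.86. Equal medians gave 0.0927 for kallikreins, 1.44 for Kunitz and 2.06 for Kazal inhibitors, against 0.0653, 1.01 and 1.45. The Kunitz ratio was 0.944 as deposited and 0.943 with equal sums, and the Kazal ratio 1.34 as deposited. No paired analysis was possible because nothing in the labels links an HBC library to the 1 RBC library. Depth in reads is unknown, so the smallest difference that could be detected among genes near 0 is not known.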
